A study of Mus musculus with 2 samples.

Results

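The genes described here carry glucose into the cell, through glycolysis to lactate, and into and out of glycogen. They are a set of 30 mouse genes taken by gene symbol from the annotated genes of both libraries, out of 15031 annotated genes with a read in either library. All 30 had reads in both. The samples form 1 group, heart tissue of adult female B6CASTF1/J mice, the first-generation hybrid of C57BL/6J and CAST/EiJ, aged 18 to 20 months. Each of the 2 libraries was a long-read RNA-seq library made from 2 µg of RNA with ERCC and SIRV control RNAs added. The labels give the libraries separate biological samples but the same donor entry, so whether they come from 1 animal is not given, and every difference reported is between 2 libraries and not between conditions. An SD is the spread between these 2 samples, which may be technical, and a p-value sets a difference against read-counting error alone.

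In glycolysis glucose enters by a GLUT transporter, is trapped by hexokinase, committed by phosphofructokinase and split by aldolase into trioses that are oxidized to pyruvate, which lactate dehydrogenase interconverts with lactate. Many steps are served by paralogs, one typical of striated muscle and others found in most tissues. Glycogen is built by glycogenin, glycogen synthase and branching enzyme and broken down by glycogen phosphorylase, which phosphorylase kinase switches on. The working heart burns mainly fatty acids and also takes up lactate, glucose and glycogen-derived glucose.

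The libraries held 630211 (replicate 1) and 664319 (replicate 2) mouse reads, of which 9751 and 10170 fell on the 30 genes, 1.55% and 1.53%. One read was worth 1.61 and 1.48 CPM, the scale used for levels, which is reads per 1000000 scaled mouse reads. Heart muscle markers had 20482 and 20913 reads, with 9 of 9 genes detected. Of these 4 were called different: Myh6, Myl2 and Myl3 were higher in replicate 1 (1.08-fold to 1.13-fold), and Nppa, a gene of atrial and stressed heart muscle, was higher in replicate 2 (583 and 1404 reads, 2.22-fold). Skeletal muscle markers had 9 and 29 reads, and Myh2, Myh4, Tnnt3 and Pvalb had none. The exact binomial test behind these calls, described below, called 2.07% of all genes tested. Some non-muscle markers differed between the libraries, in lists chosen with earlier results of these data known. Erythroid genes had 18886 and 7939 reads (5 of 5 tested were called), fat-cell genes 29 and 404 (4 of 5) and airway genes 0 and 434 (4 of 4). Fibroblast genes had 238 and 353 reads and macrophage genes 156 and 238, with only 1 of 5 called in each list, Col3a1 and Lyz2. Col1a1 (7 and 7 reads), Pdgfra (5 and 5) and Cd68 (7 and 6) had the higher CPM in replicate 1. Endothelial genes had 153 and 164 reads, with 0 of 5 called. In bulk tissue fewer cells of a type and less RNA per cell cannot be told apart.

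The 30 genes summed to 15393 ± 421 CPM (SD, n = 2). The 9 genes from aldolase to pyruvate kinase held 57.9% of that sum and the 2 lactate dehydrogenase genes 24.9%. Per kilobase of transcript these shares were 63.9% and 27.6%. The entry steps and glycogen metabolism were low by comparison: glucose transport held 1.39%, hexokinase and glucose-6-phosphate isomerase 5.04%, phosphofructokinase and its regulators 3.84%, glycogen synthesis 3.04% and glycogen breakdown 3.86% of the summed CPM. Each long read was counted once whatever its length, so CPM is a share of reads, and the value per kilobase is given as a second scale where levels of different genes are compared. The median of the 30 genes was 177 CPM, against 7.61 CPM over all 15031 genes.

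**Figure D1:**
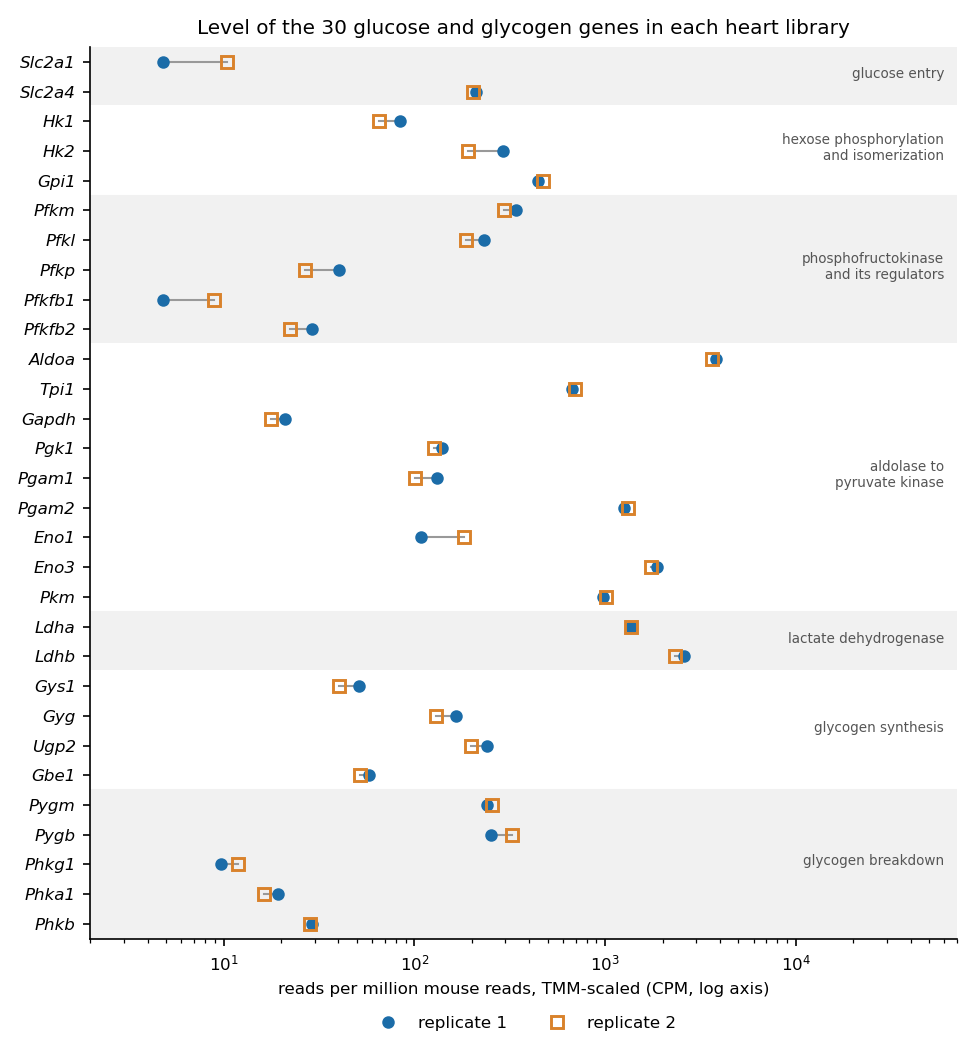
Level of each of the 30 genes in replicate 1 (filled circles) and replicate 2 (open squares), in CPM on a log axis, ordered by step of the pathway. Aldoa, Ldhb, Eno3, Ldha and Pgam2 lie above the other genes in both libraries, and Slc2a1, Pfkfb1 and Phkg1 lie lowest.

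Among the transporters, Slc2a4, which encodes the insulin-responsive GLUT4, had 131 and 137 reads in replicates 1 and 2 (207 ± 5.27 CPM, SD, n = 2). Slc2a1, which encodes the widespread GLUT1, had 3 and 7 reads. Of the hexokinases, Hk2, the insulin-responsive muscle form, had 182 and 128 reads (241 ± 72.7 CPM) and Hk1 had 52 and 44 (74.5 ± 13.0 CPM). Hk2 had more reads than Hk1 in both libraries. Gpi1, which turns glucose 6-phosphate into fructose 6-phosphate, had 278 and 319 reads (460.4 ± 18.5 CPM).

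Of the phosphofructokinases, the muscle subunit gene Pfkm had 211 and 198 reads (317 ± 32.3 CPM), the liver-type Pfkl 144 and 125 (209 ± 32.7 CPM) and the platelet-type Pfkp 25 and 18 (33.5 ± 9.55 CPM). That order was the same in both libraries. The genes for the bifunctional enzymes that make and remove the activator fructose 2,6-bisphosphate were rare. Pfkfb2, the heart type, had 18 and 15 reads (25.6 ± 4.74 CPM), and Pfkfb1, known from liver and skeletal muscle, had 3 and 6 reads.

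Aldoa, the aldolase of muscle and most other tissues, was the most abundant of the 30 on both scales, with 2368 and 2462 reads (3732 ± 110.4 CPM; 2470.2 ± 73.1 CPM per kilobase), and ranked 29 among all genes. Tpi1, which interconverts the trioses, had 417 and 471 reads (685 ± 19.9 CPM). Pgk1, the first ATP-forming step, had 87 and 85 (133 ± 9.78 CPM). Phosphoglycerate mutase came from Pgam2, the muscle gene, with 780 and 891 reads (1289 ± 47.6 CPM), and from Pgam1 with 82 and 68 (116 ± 21.9 CPM). Eno3, the muscle enolase, had 1158 and 1179 reads (1807 ± 80.2 CPM), and the widespread Eno1 had 67 and 122 (144 ± 51.8 CPM). Pkm, the pyruvate kinase of muscle and of growing cells, had 607 and 679 reads (992 ± 22.0 CPM).

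Lactate dehydrogenase is a tetramer of B and A subunits, the B-rich form being typical of heart. Ldhb had 1610 and 1569 reads (2459.9 ± 185 CPM) and Ldha 852 and 924 (1371 ± 0.354 CPM). Ldhb was above Ldha in both libraries and on both scales (1886 ± 142 and 864 ± 0.223 CPM per kilobase).

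In glycogen synthesis Gyg, the primer protein glycogenin, had 103 and 87 reads (147 ± 25.9 CPM), and Ugp2, which makes UDP-glucose, 150 and 133 (219 ± 31.1 CPM). Gys1, the muscle glycogen synthase, had 32 and 27 (45.8 ± 8.07 CPM), and Gbe1, the branching enzyme, 36 and 35 (54.9 ± 4.23 CPM). In each of these 4 genes replicate 1 had the higher CPM, and none was called different. In glycogen breakdown the muscle phosphorylase Pygm had 150 and 172 reads (248 ± 9.85 CPM) and the brain-type Pygb 156 and 219 (288 ± 52.4 CPM). The phosphorylase kinase genes were lower: Phkb, the beta subunit, had 18 and 19 reads (28.6 ± 0.54 CPM), Phka1, the muscle alpha subunit, 12 and 11 (17.8 ± 2.11 CPM), and Phkg1, the muscle catalytic subunit, 6 and 8.

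Gapdh, at chromosome 6 125161715-125166467 (mm10, minus strand), stood apart from its neighbours in the pathway with 13 and 12 reads (19.4 ± 2.20 CPM). Of these, 9 and 5 belonged to Gapdh-213, an annotated transcript of 1 exon, and only 4 and 7 were spliced. The annotation holds 147 other genes with a transcript at least 90% identical to at least 50% of the Gapdh coding sequence, and 21 of them had reads, 976 in replicate 1 and 1019 in replicate 2. Nearly all of these reads, 973 and 1013, were in annotated single-exon models. The most read were the processed pseudogenes Gm12671 (390 and 388 reads), Gm12033 (201 and 206), Gm5559 (144 and 168) and Gm7336 (148 and 151). Gapdh and its copies together had 989 and 1031 reads (1561 ± 43.2 CPM), with 98.7% and 98.8% on the copies. The gene from which those reads came was not tested, so the Gapdh value is uncertain.

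The same search gave fewer reads on copies of the other genes. Pgk1 had 25 and 22 reads on 2 processed pseudogenes, against 87 and 85 on Pgk1 itself, so copies held 22.3% and 20.6% of the joint reads. Eno1 had 13 and 31 on its copies, 16.25% and 20.3% of the joint reads, of which Eno1b (99.4% identical) held 11 and 30. The gene from which these reads came was not tested either, so the Pgk1 and Eno1 values are uncertain to that extent. Pfkfb2 and Ldhb each had 1 read on a copy in replicate 1, and Aldoa, Ldha, Pkm, Pgam1, Tpi1 and Gpi1 had copies without reads. The remaining 19 genes had no copy by this rule.

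The paralog typical of striated muscle, or of heart for Ldhb and Pfkfb2, held most of the reads, all read classes counted, in 7 of 8 families in both libraries, glycogen phosphorylase being the exception. Slc2a4 held 97.8% and 95.1% of the Slc2a4 and Slc2a1 reads in replicates 1 and 2 (mean 96.5% ± 1.85, SD, n = 2). Eno3 held 94.5% and 90.6% of the enolase reads (92.6% ± 2.76), and Pgam2 90.5% and 92.9% of the mutase reads (91.7% ± 1.71). These 3 families were the most one-sided, and dividing by transcript length left them at 97.2%, 94.6% and 95.9%.

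Hexokinase, lactate dehydrogenase and phosphofructokinase were more mixed. Hk2 held 76.1% ± 2.38 of hexokinase reads, Ldhb 64.2% ± 1.74 of lactate dehydrogenase reads and Pfkm 56.8% ± 1.79 of phosphofructokinase reads, or 71.2%, 68.6% and 63.3% per kilobase. With reads of annotated full-length models only, the Hk2 share was 40.6% and the Pfkm share 43.6%. Among such reads Hk1 was ahead of Hk2, with 24 and 27 against 20 and 15. Pfkl and Pfkp together were ahead of Pfkm, although in replicate 2 Pfkm, with 107, had more than Pfkl, with 97.

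With all read classes counted, glycogen phosphorylase was shared about evenly between Pygm and Pygb. Pygm held 49.0% of the reads in replicate 1 (exact Clopper-Pearson 95% interval 43.3% to 54.8%) and 44.0% in replicate 2 (39.0% to 49.1%), a mean of 46.5% ± 3.56. Per kilobase its mean share was 54.2% ± 3.55, so which paralog is ahead depends on the scale. Among Known reads Pygm was behind in both libraries, with 74 and 91 against 109 and 164 of Pygb. These intervals cover counting error only, and no test was set for the shares. Pfkfb2 held 18 of 21 and 15 of 21 reads of the Pfkfb1 and Pfkfb2 pair. With Known reads only the direction turned, with 1 and 0 reads of Pfkfb2 against 3 and 4 of Pfkfb1 (mean Pfkfb2 share 12.5%).

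**Figure D2:**
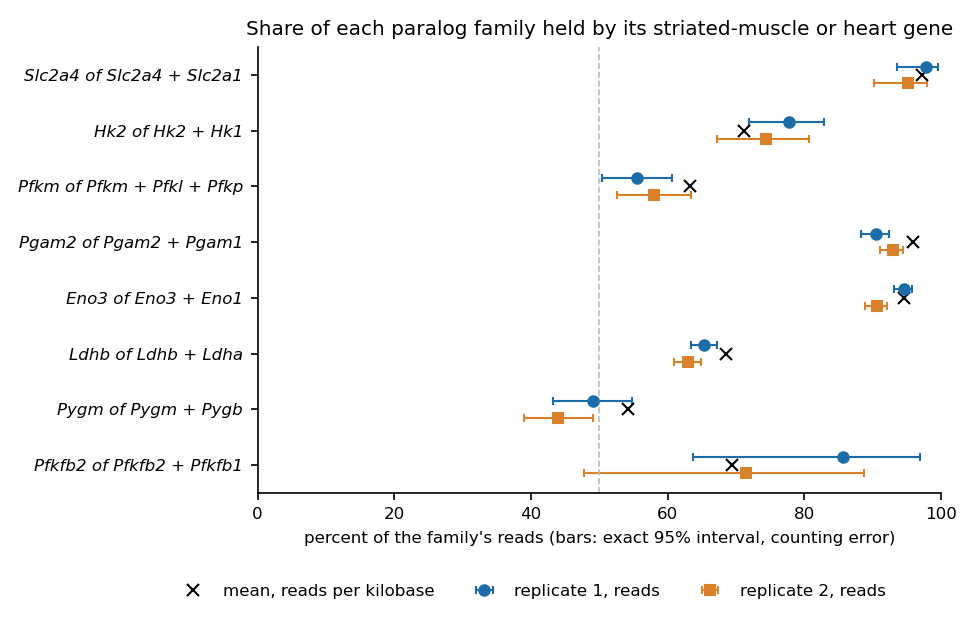
Percent of each family's reads held by the muscle or heart paralog in replicate 1 (circles) and replicate 2 (squares) with exact 95% intervals, and the mean share after division by transcript length (crosses). Slc2a4, Pgam2 and Eno3 lie above 90% in both libraries, and the Pygm points lie below 50% while its cross lies at 54.2%.

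The promoters of the paralogs differed in CpG content, a property the choice of genes did not use. RefSeq promoters (GRCm38.p6, 250 bases before to 50 after the start) were matched by symbol for 29 of the 30 genes, all but Slc2a4. Where several were listed, the one nearest the start of the gene's most read Known transcript in these data was taken. Pfkm and Pfkfb1 had 4 listed each and Eno1 had 3, and for Eno1 the starts lay 244 bases apart. The promoters of Pgam2, Eno3, Pygm and Pfkm held 1, 3, 4 and 9 CpG dinucleotides in 300 bases, and that of Hk2 held 25. The paralogs Slc2a1, Hk1, Pfkl, Pfkp, Pgam1, Eno1 and Pygb held 14 to 30. The median was 20 over the 29 matched promoters and 7 over all 32851 promoters of the table. The other pairs did not divide this way: Ldhb held 17 and Ldha 30, and Pfkfb2 held 14 and Pfkfb1 held 1. The motif GGGCGG, searched on both strands, was in 1 of those 5 muscle promoters and in 4 of the 7 others. Of the 29 matched promoters 18 held it (62.1%), against 35.7% of all promoters. In the other pairs Ldha and Pfkfb2 held it, and Ldhb and Pfkfb1 did not. This motif holds a CpG itself, so it is not separate from the CpG counts. Of the other motifs searched, ACGTG was in 3 of the 5 and 4 of the 7, against 19.6% of all promoters. TATAAA was in 0 and 1, against 13.6%, and CACGTG in 0 and 0, against 7.15%. To show the contrast, the 250 bases upstream of the RefSeq starts of the mutase genes Pgam2 (chr11:5803797-5804046, minus strand) and Pgam1 (chr19:41911621-41911870, plus strand) are given 5′ to 3′ with each CpG in capitals.
Pgam2: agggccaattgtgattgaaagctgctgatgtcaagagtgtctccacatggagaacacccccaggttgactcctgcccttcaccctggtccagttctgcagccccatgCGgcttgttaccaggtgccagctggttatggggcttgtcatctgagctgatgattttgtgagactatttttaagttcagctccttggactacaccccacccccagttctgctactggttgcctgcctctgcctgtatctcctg
Pgam1: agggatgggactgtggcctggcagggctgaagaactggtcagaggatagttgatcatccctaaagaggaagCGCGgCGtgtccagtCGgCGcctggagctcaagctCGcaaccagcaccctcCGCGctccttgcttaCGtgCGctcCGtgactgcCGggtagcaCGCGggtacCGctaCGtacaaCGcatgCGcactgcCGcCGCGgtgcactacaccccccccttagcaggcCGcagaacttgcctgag
The Pgam2 stretch held 1 CpG and the Pgam1 stretch 22.

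Each transcript model was classed by TALON against the GENCODE M21 annotation. Known models carry the full intron chain of an annotated transcript, ISM models part of one, NIC models a new chain of annotated splice sites and NNC models at least 1 new site, while Genomic models match no spliced transcript. The NIC class is the deposited one: 20 models of the set classed NIC in at least 1 library, with 44 and 43 reads, hold a splice site that M21 does not list for the gene. Of the reads of the 30 genes, 81.6% in replicate 1 and 81.8% in replicate 2 were Known, 12.3% and 11.6% ISM, 2.95% and 3.66% NIC, 1.57% and 1.28% NNC, and 1.58% and 1.67% Genomic. Over all annotated genes Known reads were 69.9% and 68.6% and Genomic reads 9.37% and 8.30%. Pooled over their reads, the 30 genes thus had more Known and fewer Genomic reads than the average read, a comparison given without a test. Most of the pooled reads came from Aldoa, Ldhb, Eno3, Ldha and Pgam2, so the pooled share is not a trait of each gene. Several genes, Hk2, Pfkm and Pygm among them, lay below the Known share of all annotated genes in both libraries. The share of Known reads was tested in 27 of the 30 genes by Fisher's exact test (two-sided, Benjamini-Hochberg over 4765 genes), and 0 were called, against 0.147% of all genes tested. At an unadjusted p under 0.05 there were 3 (11.1%), against 3.65% of all genes tested.

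Known shares ran from above 90% in Pgam1 (97.6% and 94.1%), Ldha (93.4% and 95.1%), Tpi1 (91.6% and 92.4%) and Ugp2 (91.3% and 91.7%) to 11.0% and 11.7% in Hk2 and 0 of 37 reads in Phkb. Aldoa stood at 90.2% and 88.4%, Ldhb at 87.9% and 86.5%, Pkm at 85.0% in both libraries, and Eno3 at 81.5% and 80.7%. Longer transcripts tended to have fewer Known reads. Across the 19 genes with at least 50 reads and a Known leading model, Spearman's rho between transcript length and Known share was -0.57 in both libraries, a description over genes of the same libraries. Pfkm (41.7% and 54.0%), Gys1 (37.5% and 59.3%), Pygm (49.3% and 52.9%) and Slc2a4 (55.0% and 62.8%) lay low, with most other reads ISM.

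**Figure D3:**
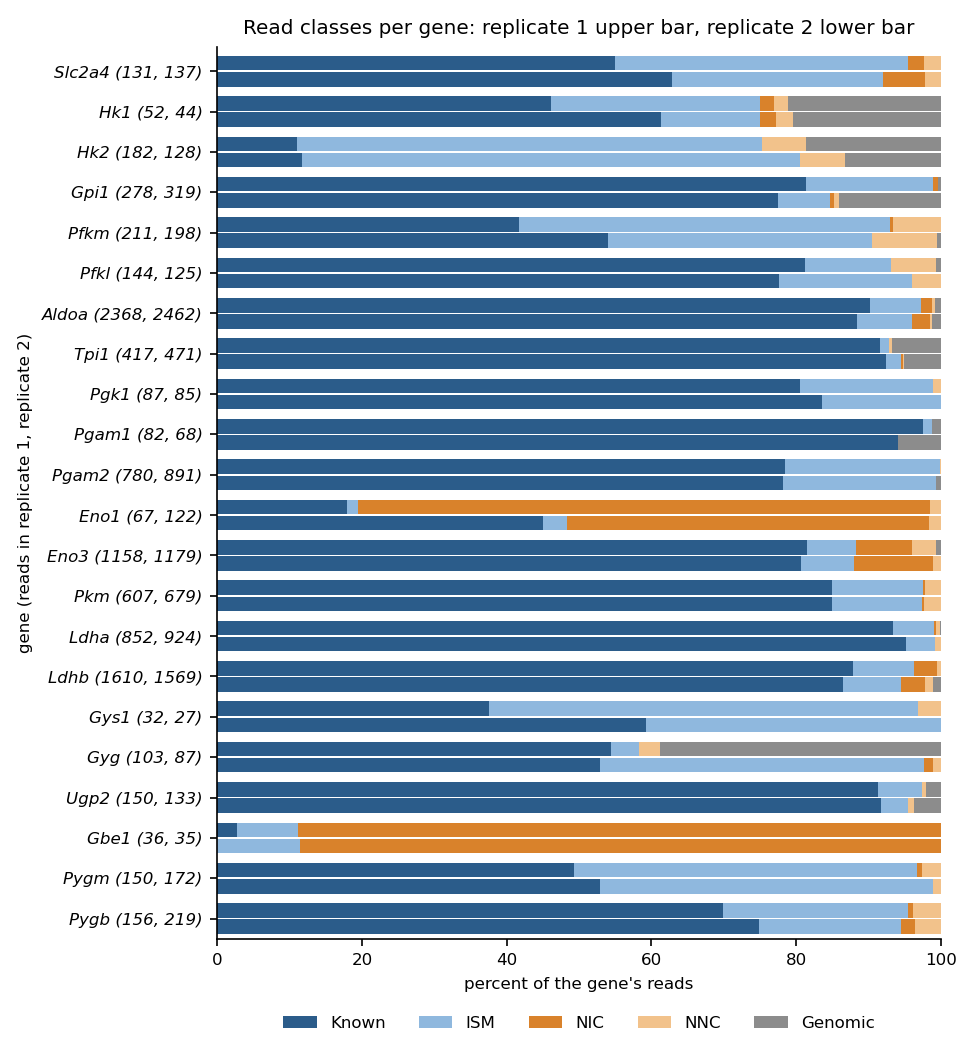
Percent of each gene's reads in the 5 read classes, replicate 1 above replicate 2, for the 22 genes with at least 50 reads over both libraries (reads in brackets). Hk2 is mostly ISM, Eno1 and Gbe1 mostly or largely NIC, and the grey Genomic share of Gyg appears in replicate 1 only.

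The leading model of 19 of the 22 genes with at least 50 reads was a Known transcript. These were Slc2a4-201, Hk1-202, Gpi1-201, Pfkm-201, Pfkl-201, Aldoa-201, Tpi1-205, Pgk1-201, Pgam1-201, Pgam2-201, Eno3-201, Pkm-202, Ldha-202, Ldhb-201, Gys1-201, Gyg-201, Ugp2-202, Pygm-201 and Pygb-201. The leading model held 89.6% and 88.0% of non-Genomic reads in Aldoa, 97.7% and 96.0% in Tpi1, and 54.2% and 55.8% in Eno3. The 3 exceptions were Hk2, Eno1 and Gbe1, each described next.

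Hk2, at chromosome 6 82725025-82774454 (minus strand), was read mainly as its first exon alone. A single-exon ISM model of 537 bases, 82773918-82774454, had 97 reads in replicate 1 and 75 in replicate 2, while the full-length Hk2-201, of 5513 bases, had 20 and 15. The ISM model has the bounds of the first exon of Hk2-201. Counting every single-exon model, 72.0% and 71.9% of Hk2 reads were unspliced, 97 and 75 of them at the first exon and 34 and 17 at the last. In the other 29 genes, only 1 read of replicate 1 and none of replicate 2 was a single-exon read placed at the first exon. Most other single-exon reads of the set lay at the last exon, 359 in replicate 1 and 334 in replicate 2 with those of Hk2 included, and 7 and 6 lay elsewhere. Coordinates of single-exon models are those listed for the model and not the ends of each read, and the most read Genomic model of Aldoa in replicate 1 is listed with 2 bases.

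Gbe1, at chromosome 16 70313949-70569716 (plus strand), led with a NIC model of 16 exons that had 32 of 36 and 31 of 35 reads. It differs from the annotated Gbe1-203 in 1 intron alone, placed 4 bases upstream as in Gbe1-201 (70401850-70433544 in place of 70401854-70433548). The M21 sequences around the junction of the 2 annotated transcripts were identical, and the 4 bases that can be given to either side are in capitals.
Gbe1-203 and Gbe1-201, joined exons: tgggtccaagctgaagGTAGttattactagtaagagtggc
The NIC model and Gbe1-203 thus leave the same spliced bases at this junction, and the class of these 63 reads rests on where the intron was placed.

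Pkm makes the M1 enzyme of muscle or the M2 enzyme of growing and many non-muscle cells by the use of 1 of 2 exons of 167 bases. Both exons are coding, exon 9 of Pkm-202 (M1, chr9:59675029-59675195, plus strand) and of Pkm-201 (M2, chr9:59675568-59675734). In the sequences of GENCODE M21 they share 103 of 167 bases at the same position, and the 64 differing bases are in capitals.
Pkm M1 exon: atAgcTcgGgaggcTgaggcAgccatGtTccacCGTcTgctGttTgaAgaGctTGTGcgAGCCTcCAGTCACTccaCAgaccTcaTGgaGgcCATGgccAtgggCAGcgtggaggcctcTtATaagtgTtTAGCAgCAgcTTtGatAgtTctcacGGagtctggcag
Pkm M2 exon: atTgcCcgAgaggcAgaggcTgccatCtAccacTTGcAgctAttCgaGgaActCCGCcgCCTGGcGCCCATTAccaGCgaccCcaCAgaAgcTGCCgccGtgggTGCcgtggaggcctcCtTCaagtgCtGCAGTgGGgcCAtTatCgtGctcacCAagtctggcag
The M1 exon was in 545 of 569 reads over the region in replicate 1 (95.8%, exact 95% interval 93.8% to 97.3%) and in 585 of 632 in replicate 2 (92.6%, 90.2% to 94.5%). The M2 exon was in 23 and 46 reads, and 1 read in each library had both. The M1 form therefore led in both libraries. The intervals overlapped, which does not decide whether the share differed, and no test was set for it.

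Eno1, at chromosome 4 150236721-150248879 (plus strand), also uses 1 of 2 coding exons of equal length, 59 bases. Its leading model was a NIC model of 12 exons with 50 and 60 reads, which has the exons of Eno1-202 except that the fourth is the upstream exon of the shorter annotated Eno1-205 (chr4:150241767-150241825) in place of the downstream one (chr4:150242122-150242180). The exons share 30 of 59 bases at the same position, and the 29 that differ are in capitals.
Eno1 upstream exon: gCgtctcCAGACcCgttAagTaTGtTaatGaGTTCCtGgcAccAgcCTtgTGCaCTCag
Eno1 downstream exon: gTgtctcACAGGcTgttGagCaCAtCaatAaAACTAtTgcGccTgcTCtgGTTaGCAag
The upstream exon was in 53 of 65 reads in replicate 1 (81.5%, exact 95% interval 70.0% to 90.1%) and in 60 of 117 in replicate 2 (51.3%, 41.9% to 60.6%). The downstream exon was in 10 reads in replicate 1 and 57 in replicate 2. Reads with the upstream exon were thus about equal in the libraries, and the further reads of replicate 2 held the downstream exon.

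**Figure D4:**
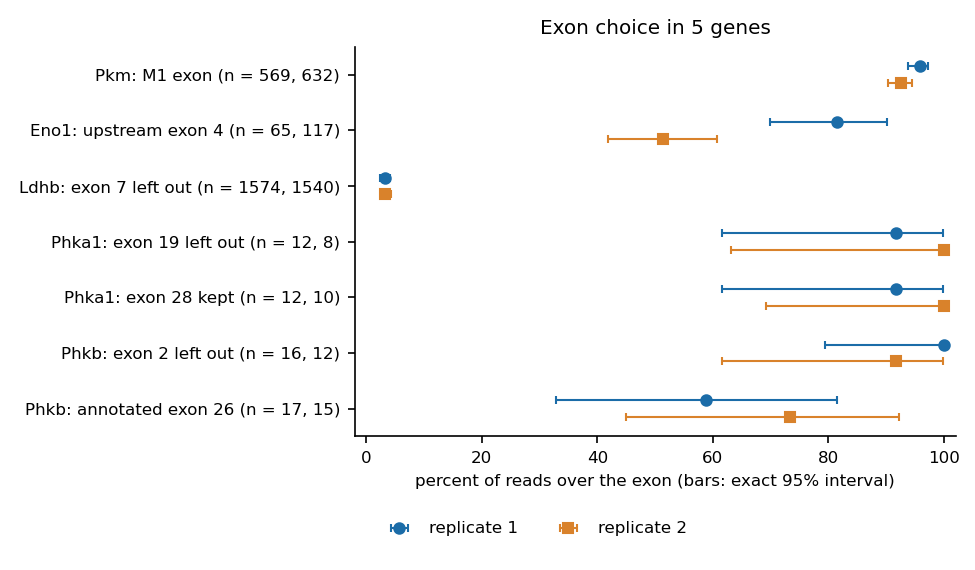
Percent of reads over an alternative exon that hold the form named at the left, in replicate 1 (circles) and replicate 2 (squares) with exact 95% intervals (n is the number of reads). Pkm M1 lies above 90% in both libraries, and the Eno1 intervals do not overlap.

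The regulatory subunits of phosphorylase kinase had few reads, those of Phka1 mostly of 1 combination of exons and those of Phkb of several. Phka1 left out a coding exon of 177 bases, exon 19 of Phka1-202 (chrX:102557096-102557272, minus strand), in 11 of 12 and 8 of 8 reads, and kept one of 51 bases, exon 28 of Phka1-201 (chrX:102528067-102528117), in 11 of 12 and 10 of 10. Phka1-201, which has that combination, was its leading model. Phkb had no Known read, and its leading model was a NIC model of 31 exons with 9 and 7 reads. Exon 2 of Phkb-201 (chr8:85843004-85843112, 109 bases, 52 of them coding) was left out in 16 of 16 and 11 of 12 reads. At exon 26 (chr8:86026457-86026547, 91 bases) 10 of 17 and 11 of 15 reads held the annotated exon, and 6 and 4 held in its place an exon of the same length that overlaps no annotated Phkb exon (chr8:86025198-86025288).

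Over all 30 genes there were 223 new spliced models (NIC or NNC), with 446 reads in replicate 1 and 502 in replicate 2. Of these, 39 were seen in both libraries and held 79.0% of the reads, while 171 rested on 1 read. The 10 most read held 64.8% of the reads and came from 7 genes. Besides those of Eno1 (50 and 60 reads), Gbe1 (32 and 31) and Phkb (9 and 7), they included a Ldhb model that lacks exon 7 (chr6:142492493-142492616, 124 coding bases, not a multiple of 3) with 48 and 49 reads. In all, exon 7 was left out in 50 of 1574 Ldhb reads in replicate 1 (3.18%) and in 51 of 1540 in replicate 2 (3.31%), a difference well within the exact intervals.

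Most other frequent new models differed outside the coding span. Eno3 had NIC models with 45 and 65 reads and with 22 and 25 with new intron chains at the noncoding 5′ end and no change in coding bases. The first intron of the more read one is itself annotated, and only its full chain is new. Of its reads with a first exon, 86.9% and 85.9% used 1 first-exon end, and 67 and 93 reads and 54 and 43 reads used the next most common ends. The other 2 Eno3 models, with 18 and 19 and with 10 and 8 reads, gained 4 bases in the coding span, not a multiple of 3. Aldoa had a NIC model with 34 and 55 reads that uses another first exon, and 97.7% and 96.3% of its reads used the leading one. Pfkm had a NNC model with 11 and 16 reads whose first exon is 49 bases longer. Ugp2 used its first exons in a ratio of 100 to 38 reads in replicate 1 and 86 to 37 in replicate 2.

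The remaining genes with first exons examined were nearly uniform. Ldha used 1 first-exon end in 803 of 803 and 881 of 886 reads, and Ldhb in 1471 of 1474 and 1426 of 1426. Hk1 used one in 24 of 26 and 28 of 29 reads, Gys1 in 12 of 13 and 16 of 16, and Slc2a4 in 74 of 78 and 86 of 97. In Pfkfb1 and Pfkfb2, with 3 to 10 such reads in a library, no order of first exons could be read.

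To ask how alike the libraries were, the split of each gene's reads was set against the split of the scaled library sizes in a two-sided exact binomial test, with Benjamini-Hochberg adjustment over the 7545 genes of 10 or more reads. Of the 29 genes of the set that could be tested (Pfkfb1 could not), 2 were called at an adjusted p under 0.05, against 2.07% of all genes. Hk2 was the 1 gene called higher in replicate 1 (0.861% of all genes) and Eno1 the 1 gene called higher in replicate 2 (1.21% of all genes). The fold was under 1.2 in 16 of the 29 genes, and the log2 ratio (replicate 1 over replicate 2) had a median of 0.15, against -0.0005 for all genes tested. Aldoa (1.04-fold), Tpi1 (1.04-fold), Pkm (1.03-fold), Ldha (1.00-fold) and Slc2a4 (1.04-fold) differed least among the abundant genes.

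Eno1 was 1.68-fold higher in replicate 2 (95% interval 1.24 to 2.30, adjusted p = 0.0323 by the exact binomial test), on 67 against 122 reads. Its near-identical copy Eno1b moved the same way, with 11 and 30 reads, and was not called (adjusted p = 0.192 by the exact binomial test). With reads on copies added to Eno1, an alternative chosen after seeing the data, the exact test gave an adjusted p of 0.0025, and with no minimum of reads 0.0644. With Known reads only there were 12 reads in replicate 1 and 55 in replicate 2 (log2 ratio -2.05, exact adjusted p = 4.64e-05), which is the low end of the range of 4.64e-05 to 0.0644 over its alternatives. Its leading-model share also differed, 74.6% against 49.2% (Fisher's exact test, two-sided, adjusted p = 0.0427). That second call was lost with Genomic reads of all genes kept (exact adjusted p = 0.108) and among spliced models only (0.552), over a range of 0.0200 to 1. Eno1 had 0 Genomic and 0 single-exon reads in both libraries, so its own counts were the same in these settings. The loss there came from the adjustment over the genes tested and not from the Eno1 reads. The Known share, 17.9% and 45.1%, was not called (Fisher's exact test, adjusted p = 0.118), and passed with Genomic reads of all genes left out (0.0160) and with a minimum of 50 reads (0.0409). Fat-cell and airway markers, Nppa, 1 of 5 fibroblast genes (Col3a1) and 1 of 5 macrophage genes (Lyz2) were also called higher in replicate 2. Their part in the Eno1 result was not tested.

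Hk2 was 1.54-fold higher in replicate 1 (95% interval 1.22 to 1.95, adjusted p = 0.0113 by the exact binomial test), on 182 against 128 reads. The call needed the partial reads. With Genomic reads left out the exact test gave an adjusted p of 0.104, with Known reads only 0.911, and with spliced models only, chosen after seeing the data, 0.563, over a range of 0.00513 to 0.911. The log2 ratio stayed between 0.50 and 0.62 in all of these. Erythroid markers were higher in replicate 1 too, and their part in the Hk2 result was not tested.

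Ldhb, 1.11-fold higher in replicate 1 (95% interval 1.04 to 1.19), and Pygb, 1.29-fold higher in replicate 2 (1.05 to 1.60), had the next lowest p-values and were not called (exact binomial test, adjusted p = 0.0938 and 0.285). Ldhb passed with a minimum of 50 reads (exact adjusted p = 0.0486) and with Genomic reads left out (0.0436). The latter setting took 0 Ldhb reads from replicate 1 and 18 from replicate 2. At the last exon, 22 single-exon reads of replicate 1 were classed ISM and stayed in, and 18 of replicate 2 were classed Genomic.

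**Figure D5:**
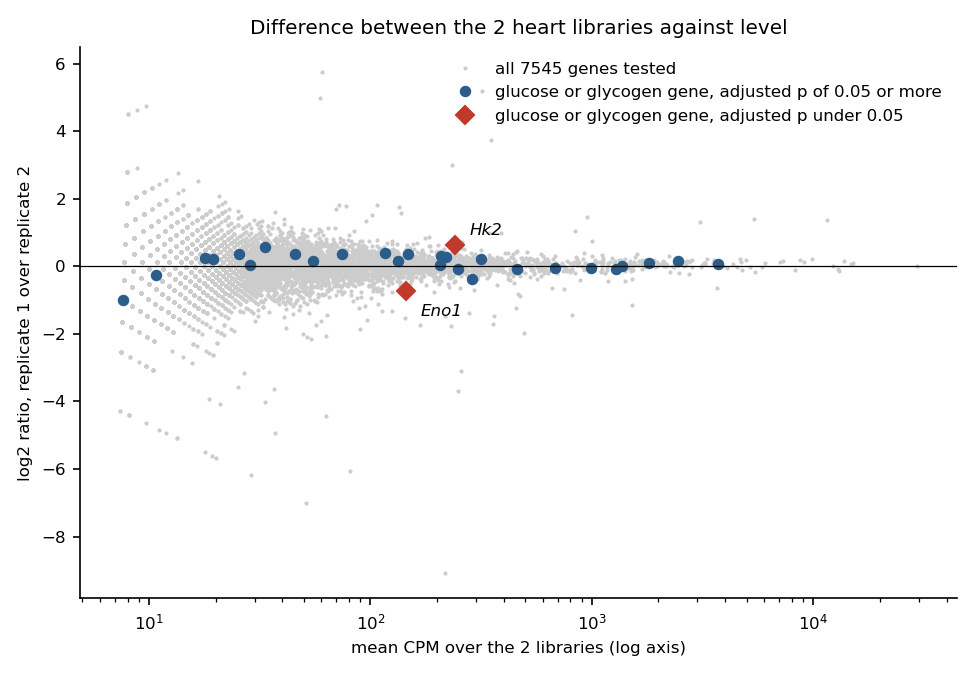
Log2 ratio of replicate 1 over replicate 2 against mean CPM (log axis) for the 7545 genes tested (grey), with the 29 tested glucose and glycogen genes in blue and the 2 called ones as red diamonds. Most of the 29 lie near 0, with Hk2 above and Eno1 below.

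The share of the leading model was compared by Fisher's exact test (two-sided, Benjamini-Hochberg over 4223 genes). Of 27 genes of the set tested 2 were called, Eno1 and Gyg, against 1.73% of all genes. In Gyg, at chromosome 3 20122084-20155317 (minus strand), the leading Gyg-201 held 56 of 63 and 44 of 87 non-Genomic reads (adjusted p = 6.78e-05 by Fisher's exact test). The difference went with the class given to single-exon reads at the 3′ end of the gene: 40 such reads of replicate 1 were classed Genomic (20122084-20122556) and 37 of replicate 2 ISM (20122084-20122864). With Genomic reads kept, the Gyg-201 share was 56 of 103 and 44 of 87 (exact adjusted p = 1, range over alternatives 2.71e-05 to 1). Gpi1 showed a like exchange, with 26 ISM reads in replicate 1 and 43 Genomic reads in replicate 2 at models ending 2 bases apart, and so did Ldhb (22 ISM and 18 Genomic reads).

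Other genes of the same pathways, 58 in 4 lists, were compared in the exact binomial test of gene reads, in which 27 had enough reads. Of these 1 was called (3.70%), against 2.07% of all genes tested. Among other transporters (0 of 3 tested called) Slc2a12 (30 and 24 reads), Slc2a8 (14 and 26) and Slc2a10 (9 and 8) were the most read. Among other glycolytic enzymes (0 of 7) these were Tigar, a fructose 2,6-bisphosphatase (177 and 154), the phosphoglycolate phosphatase gene Pgp (110 and 77) and Bpgm, which makes 2,3-bisphosphoglycerate (65 and 49). The glycogen list (0 of 11) was led by Pgm1, the phosphoglucomutase (187 and 235 reads), the lysosomal glucosidase gene Gaa (82 and 95) and Ppp1r3c, a glycogen-targeting phosphatase subunit (27 and 34).

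In the list of lactate transport and redox shuttles (1 of 6 called) Bsg, the chaperone of lactate transporters, had 1434 and 1547 reads and Slc16a1, the lactate transporter MCT1, 38 and 44. Gpd1, a cytosolic glycerol-3-phosphate dehydrogenase, was the called gene, with 16 and 59 reads, 3.40-fold higher in replicate 2 (95% interval 1.93 to 6.33, exact binomial test, adjusted p = 0.000229). The fat-cell markers, 5 of 6 of them detected, had 29 and 404 reads in the same libraries and Nppa 583 and 1404, and their part in the Gpd1 result was not tested. Of the 58 genes 11 had no read in either library.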

How the data were processed

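For each library the authors deposited a table of counts, whole and not normalized, of long reads per TALON transcript model, and the exon coordinates of the models on mm10 with GENCODE M21, as the labels and the notes deposited with the files name them. The notes say that filtered alignments were used. The aligner, the filters and the TALON version were not given in the sources used here. Known models were matched between libraries by identifier, spliced new models by intron chain and single-exon ones by 50% reciprocal overlap. Control RNAs were left out. Library sizes were scaled by TMM (edgeR 4.0.16; factors 0.986 and 1.01), and DESeq2 1.42.0 size factors served as an alternative. Gene reads were tested with the exact binomial test in genes with at least 10 reads, and shares with Fisher's exact test where both libraries had 10 or more reads, called at 0.05 (scipy 1.17.1). The tests were tested on simulated data. Fold intervals are exact Clopper-Pearson 95% intervals, and intervals and p-values cover counting error only, since the reads carry no stated molecular identifiers. Log2 ratios have 0.5 reads added. Copies were found with blastn 2.17.0 at 90% identity. Level per kilobase uses the most abundant Known transcript (for Gbe1 and Phkb the leading new model). All 30 genes are accounted for. Both libraries' values are given from 20 reads, leading models from 50 reads, the 10 most read new models, and from each further list the 3 most abundant and every called gene. Copies with reads were named after their values were seen. The genes, lists and families were chosen with earlier results of these data known.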

Additional observations from a re-analysis of the deposited data

How the results depend on the processing

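No paired analysis was possible because there is 1 group only. Of the set, 2 genes were called different in reads with total-read scaling, DESeq2 size factors, Genomic reads left out (Eno1 and Ldhb) or copies added, 3 with a minimum of 50 reads, and 1 with Known reads only (Eno1), without a minimum (Hk2) or with spliced models only (Eno1). Calls of leading share fell from 2 to 0 with Genomic reads kept, Known reads only or spliced models only. Calls of Known share rose from 0 to 2 with Genomic reads left out (Eno1, Gyg) and to 1 with a minimum of 50 reads (Eno1). Spliced-model and copy settings were chosen after seeing the data, and where no value is given the cause was not tested. In the settings as reported, 2.07% of all genes were called in reads, 1.73% in leading share and 0.147% in Known share. The share of all genes called under each alternative is not given here, so these counts describe the set only.

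With Known reads only the muscle share moved to 40.6% (Hk2), 43.6% (Pfkm), 96.6% (Eno3), 62.3% (Ldhb), 38.1% (Pygm) and 12.5% (Pfkfb2). Per length it moved to 71.2% (Hk2), 63.3% (Pfkm), 95.9% (Pgam2), 68.6% (Ldhb) and 54.2% (Pygm). Left to 1 library, the shares ran from 95.1% to 97.8% (Slc2a4), 74.4% to 77.8% (Hk2), 55.5% to 58.1% (Pfkm), 90.5% to 92.9% (Pgam2), 90.6% to 94.5% (Eno3), 62.9% to 65.4% (Ldhb), 44.0% to 49.0% (Pygm) and 71.4% to 85.7% (Pfkfb2). Known reads alone gave 0% for the Eno1 upstream exon and the Ldhb exon 7 skip, which no Known read held, 99.2% for the leading Aldoa first exon and 94.9% for that of Eno3. In single libraries the forms ran from 92.6% to 95.8% (Pkm M1), 51.3% to 81.5% (Eno1 upstream exon), 58.8% to 73.3% (Phkb exon 26), 91.7% to 100% (Phkb exon 2 left out and both Phka1 exons), 3.18% to 3.31% (Ldhb), 96.3% to 97.7% (Aldoa), 85.9% to 86.9% (Eno3) and 69.9% to 72.5% (Ugp2).

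The summed level was 19079.96 CPM with Known reads only, 16539 without Genomic reads, 17006 with copies added, and 15096 to 15691 in single libraries. Uncalled log2 ratios changed sign with Known reads only in Slc2a4 (-0.15), Hk1 (-0.067), Pfkm (-0.18) and Gys1 (-0.30), without Genomic reads in Gpi1 (0.13), Gyg (-0.35) and Phkg1 (0.11), and with spliced models in Slc2a4 (-0.11), Gapdh (-0.62) and Phkg1 (0.36). The Eno1 leading share difference was -16.7 points among Known reads and the Gyg Known share difference -3.11 points among spliced models. Genes under about 50 reads, phosphorylase kinase among them, are limited by depth.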

Other observations

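Small shifts of a splice site recurred among the new models of the set. In 20 new models of 12 genes 4 bases of the coding span were gained and none lost over the stretch the model covers, some of them starting or ending inside the gene. They had 39 reads in replicate 1 and 41 in replicate 2, of which Eno3 held 31 and 27. The other 11 genes, Aldoa, Gpi1, Gys1, Hk2, Ldhb, Pfkl, Phkb, Pkm, Pygb, Pygm and Tpi1, had 1 to 6 such reads each. A second Ldhb model, with 4 and 11 reads, lost 36 coding bases, a multiple of 3, at a new splice site.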
